A study of Mus musculus with 8 samples.

Results

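Spliceosome and splicing factor genes were examined for H3K36me3, the trimethylation of lysine 36 of histone H3 that marks genes while they are transcribed. Members were the protein-coding genes of GENCODE M21 on chromosomes 1 to 19 of mm10 whose symbol begins with Srsf, Hnrnp, Sf3a, Sf3b, Snrp, Prpf or U2af, with a digit after the name where the family is numbered and without Snrpn. The rule gave 66 of 20722 genes and used no measured value. They fell into 11 Srsf, 19 Hnrnp, 9 Sf3, 11 Snrp, 13 Prpf and 3 U2af genes.

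The cells were i4F mouse embryonic fibroblasts (MEFs) from E13.5 embryos, which carry a doxycycline-inducible cassette of Oct4, Sox2, Klf4 and cMyc (OSKM). All 4 groups carried this cassette, came from the source labelled Clone 1 and were collected 72 h after the change to iPSC medium. MEF received neither doxycycline nor vitamin B12, MEF B12 received 2 µM vitamin B12, OSKM received 1 µg/ml doxycycline by the labels, and OSKM B12 received both. Each group had 1 H3K36me3 library and 1 input library, so differences between groups could not be set against replicates and carry no p-value. The antibody is named H3K3me3 in the labelled protocol and H3K36m3 in the sample labels, and called peaks here rarely covered a gene start. Fewer cells that carry the mark and less mark per cell cannot be told apart in these bulk samples.

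The libraries held between 29046913 and 33399267 H3K36me3 tags after filtering. Called peaks on chromosomes 1 to 19 covered 150.5 Mb in MEF, 162.6 Mb in MEF B12, 91.8 Mb in OSKM and 162.6 Mb in OSKM B12, from between 64364 and 67234 peaks. OSKM stood apart as the library with the least covered sequence, and every comparison with OSKM below rests on that 1 library. Of 10 fibroblast marker genes, between 8 and 10 had at least 10% of the body under peaks in each library, and none of 7 pluripotency or 5 epithelial markers did. Of 4 blood markers, Cd68 and Csf1r passed this level in every library while Ptprc and Hbb-bt were at 0%, and of 4 endothelial markers Tek passed it in OSKM B12 only. The part of such cells in the results was not tested.

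Splicing removes introns from pre-mRNA in the spliceosome, which is built from the U1, U2, U4, U5 and U6 small nuclear ribonucleoproteins (snRNPs). Sm proteins (Snrpb, Snrpd1 to Snrpg) form the ring on the snRNAs, the Sf3a and Sf3b complexes of the U2 snRNP hold the branch site, U2af proteins read the 3′ splice site, and Prpf proteins act in the tri-snRNP and in the later steps. SR proteins (Srsf) and heterogeneous nuclear ribonucleoproteins (Hnrnp) bind pre-mRNA and steer the choice of splice sites. Several SR and hnRNP genes limit their own level through a cassette exon whose inclusion sends the transcript to nonsense-mediated decay (NMD). H3K36me3 is written by SETD2, which travels with elongating RNA polymerase II.

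For each gene, the body was the longest protein-coding transcript, and the covered share was the percentage of its bases under a called peak. Density was the sum of peak pileup (how many extended fragments lie over a base, averaged over each peak) over the body, divided by body length and scaled to 1000000 tags of the library. Bases outside called peaks added nothing to density, so a lost call lowers it as a lower level does. A gene was counted as marked when its covered share averaged at least 10% over the 4 libraries. By this measure 63 of the 66 members were marked, among 8966 marked genes of all 20722.

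The 3 members below that level were Srsf12, Sf3b5 and Hnrnpa0. Srsf12, an SR protein gene of 24350 bases, had no peak in any library. Sf3b5, a small Sf3b subunit encoded by a single exon of 3841 bases, had none either. Hnrnpa0, also without introns, was covered over 6.16% in MEF B12 and at 0% in the other 3 libraries. A body with 0% held no enrichment that could be called at this depth, where the lowest called pileup lay between 0.246 and 0.275 per 1000000 tags.

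The median covered share of the 66 members was 68.9% in MEF and 72.5% in MEF B12, and 54.7% in OSKM against 72.2% in OSKM B12. Over all 20722 protein-coding genes the same medians were 1.56%, 2.55%, 0% and 2.65%. Peaks spanned at least 50% of the body in 51 members in MEF and 52 in MEF B12, and 37 in OSKM against 53 in OSKM B12, against 51.3%, 56.3%, 27.5% and 56.8% of all marked genes. As shares of the 63 marked members these counts were 81.0%, 82.5%, 58.7% and 84.1%. OSKM had the lowest median covered share over the 63 marked members (55.8%). Over all marked genes it was lowest as well, at 31.7% against 51.1% in MEF, 54.8% in MEF B12 and 55.4% in OSKM B12. Exceptions among the marked members were Hnrnpdl, lowest in OSKM B12 (54.7% against 58.3% in OSKM), and Sf3a2, lowest in MEF B12 (58.6% against 65.9%). Snrpe and Sf3b4 were lowest in MEF.

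**Figure D1:**
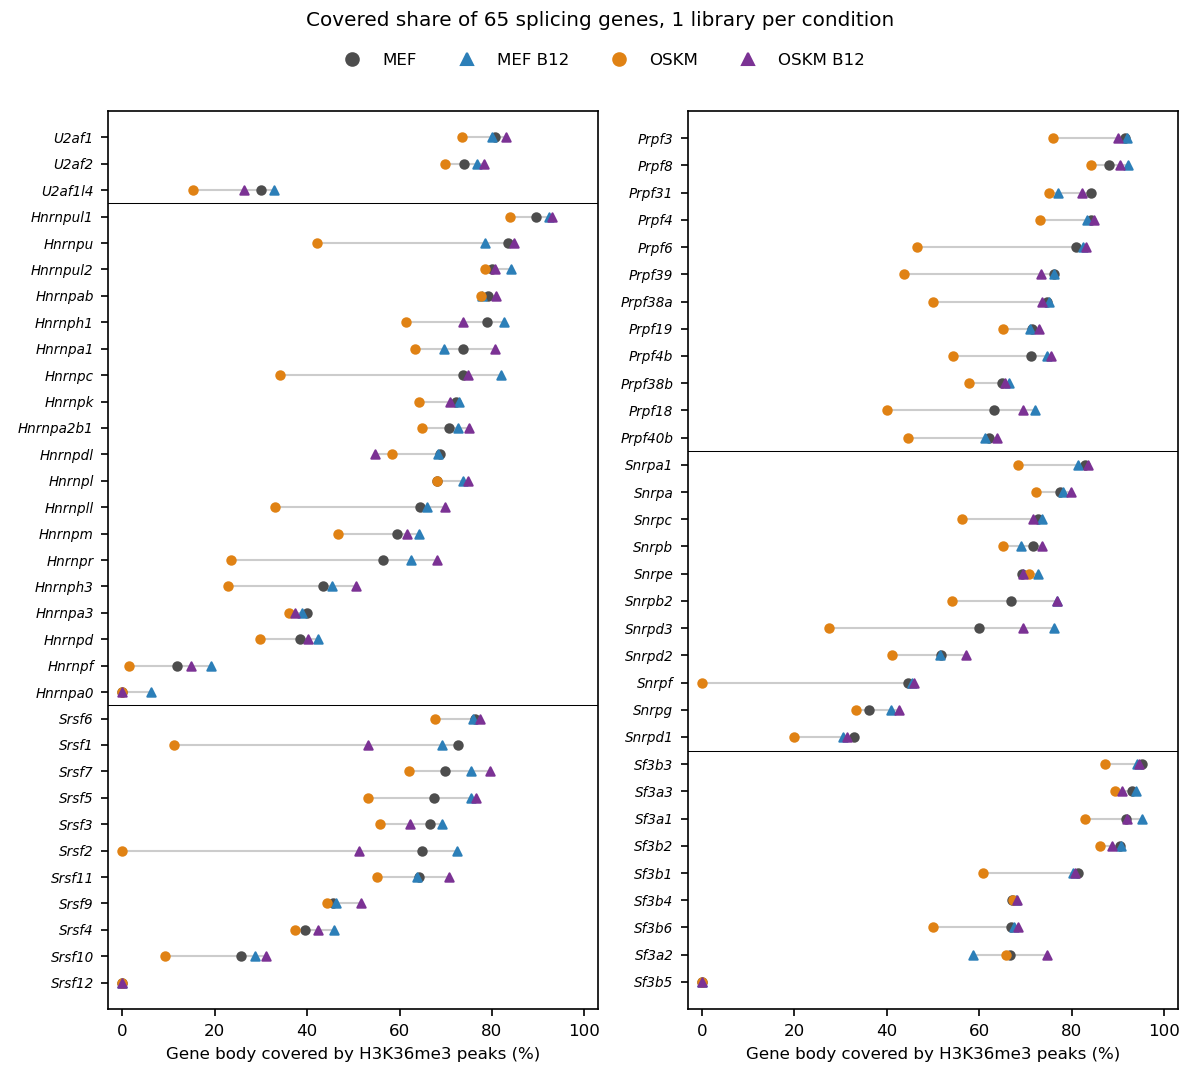
Percentage of the gene body under H3K36me3 peaks for 65 of the 66 members, with 1 point per library (circles, MEF and OSKM; triangles, the B12 groups) and a grey line from the lowest to the highest. Genes are ordered by MEF value within each name group; OSKM falls far below the others at Srsf1, Srsf2, Snrpf, Hnrnpu and Hnrnpc, while the Sf3 genes stay above 49% in all 4 libraries except Sf3b5.

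The U2 snRNP genes of the Sf3 group carried the widest coverage. Sf3b3, the Sf3b subunit with the highest MEF density of its group, was covered over 95.2% in MEF and 94.1% in MEF B12, and 87.1% in OSKM against 94.6% in OSKM B12. In MEF 1 peak of 35799 bases ran from intron 1, 1749 bases past the start, to 1010 bases past the annotated end. In OSKM the same gene held 6 peaks, the longest of 9426 bases. Signal in the gaps between them was not analysed, so a broken domain and signal below the calling level cannot be told apart. Its density went from 0.810 in MEF to 0.494 in OSKM and 0.924 in OSKM B12, and OSKM was 0.610 times MEF (95% interval 0.578 to 0.645 from counting error alone). This gene overlaps Cog4, another protein-coding gene, and signal there cannot be assigned to either.

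Sf3b1, which contacts the branch site, had the most negative log2 change of density in the Sf3 group from MEF to OSKM (−0.87, with 0.05 added to each density). It was covered over 81.3% in MEF and 80.3% in MEF B12, and 60.9% in OSKM against 80.7% in OSKM B12, and it held 2 peaks in MEF and 10 in OSKM. The least negative was that of Sf3b4 (−0.44). Its body was covered over 67.02%, 67.9%, 67.3% and 68.2% in the same order, while its density was 0.50 in MEF and 0.614 in MEF B12, and 0.356 in OSKM against 0.592 in OSKM B12. Covered share held in this gene while the level under the peak was lower in OSKM. Over the 8 marked Sf3 genes the median covered share was 85.8% in MEF and 75.1% in OSKM.

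Among SR protein genes, Srsf1 and Srsf2 differed from the rest of their group. Srsf1, which promotes use of nearby splice sites, was covered over 72.6% in MEF and 69.1% in MEF B12, and 11.3% in OSKM against 53.1% in OSKM B12. Its MEF peak began in exon 3 and ran 1559 bases past the end, whereas the OSKM peak was 721 bases long, began in intron 3 and ended 3714 bases before the end. All of its OSKM pileup therefore lay in the upstream 50% of the body, where MEF had 68.9% of its pileup in the downstream 50%. Its density was 0.392 in MEF and 0.391 in MEF B12, and 0.0467 in OSKM against 0.332 in OSKM B12. OSKM was thus 0.119 times MEF (95% counting interval 0.0836 to 0.169), a ratio that combines lost calls with level. On bases called in all 4 libraries its scaled pileup was 0.540 in MEF and 0.413 in OSKM. Pileup on bases not called in OSKM is not listed. The OSKM peak was a weak call with a −log10 q of 1.49, against 3.42 in MEF and 6.52 in OSKM B12.

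Srsf2, an SR protein that binds exonic enhancers, had no peak in OSKM. The covered share was 65.0% in MEF and 72.5% in MEF B12, and 0% in OSKM against 51.3% in OSKM B12. Its peaks had a −log10 q of 4.79 in MEF, 6.85 in MEF B12 and 4.30 in OSKM B12. No fold is given because pileup below the calling level is not listed. The gene is 3194 bases long, and in the other 3 libraries its peak began between 878 and 1556 bases past the start and ran on past the end.

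The other 8 marked SR protein genes kept peaks in every library. Srsf6 had the highest MEF density of the group, 0.606, beside 0.658 in MEF B12, and 0.363 in OSKM against 0.706 in OSKM B12. Srsf9 had the least negative log2 change of density from MEF to OSKM (−0.38), with a covered share of 45.7%, 46.2%, 44.3% and 51.7% in MEF, MEF B12, OSKM and OSKM B12. Srsf5 had the lowest share of MEF pileup downstream, 60.9%, and its MEF signal ran 8649 bases past the end. Srsf10 was thinly marked, at 25.6%, 28.7%, 9.18% and 31.1% in the same order.

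**Figure D2:**
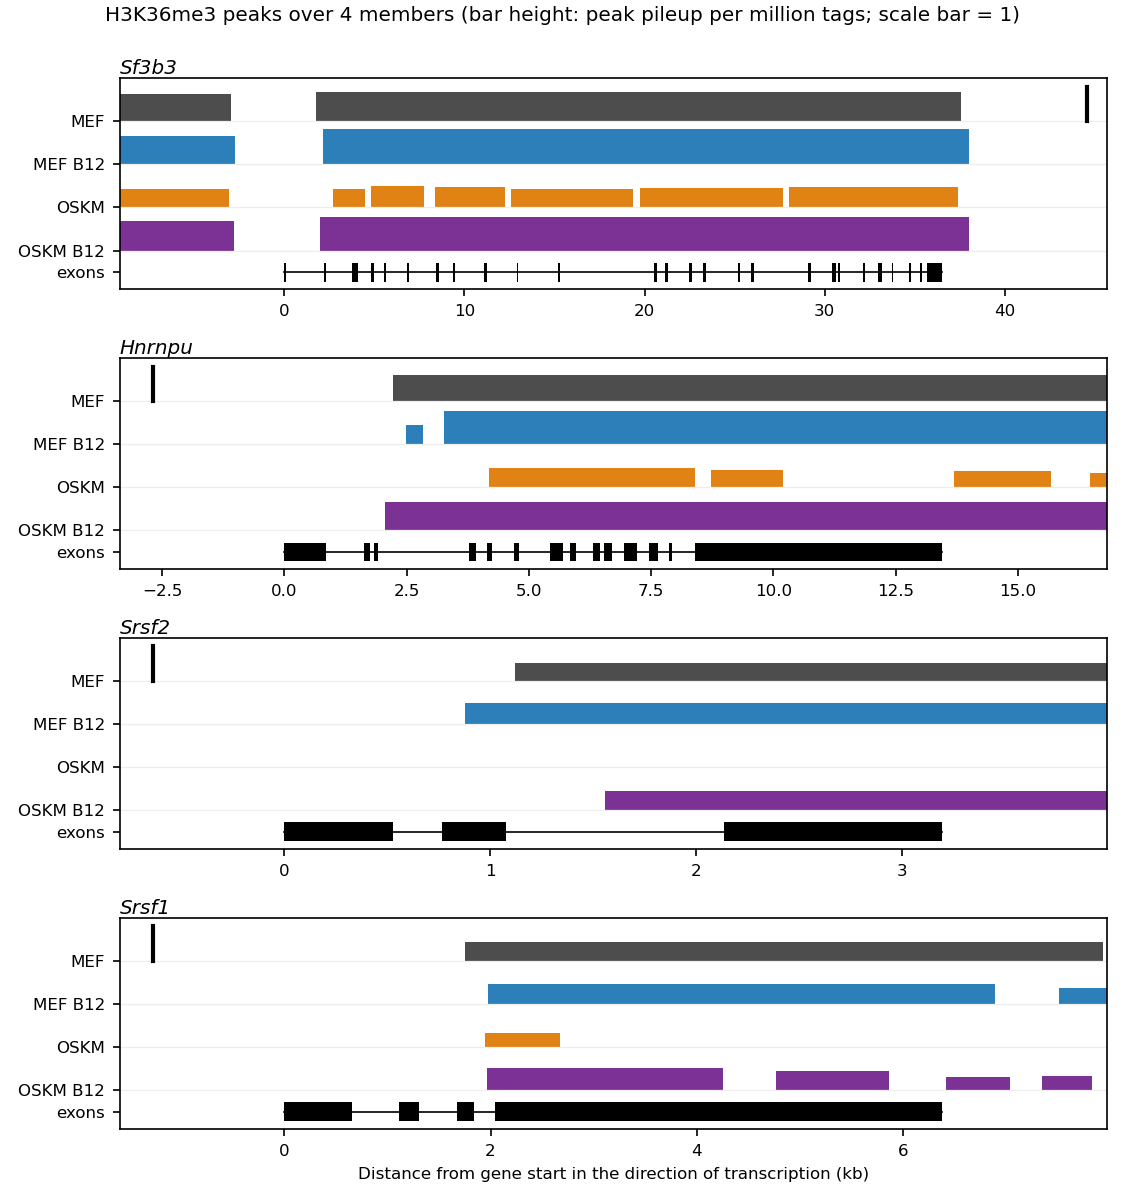
Called H3K36me3 peaks over Sf3b3, Hnrnpu, Srsf2 and Srsf1 against distance from the gene start in kb, drawn in the direction of transcription with a margin of 25% of the body on each side. Bar height is peak pileup per 1000000 tags (scale bar, 1) and black boxes are exons; OSKM shows 6 separate peaks in Sf3b3, 2 within the Hnrnpu body, none in Srsf2 and 1 short peak in Srsf1.

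Of the hnRNP genes, Hnrnpul1 had the highest MEF density and Hnrnpu the most negative log2 change of density from MEF to OSKM (−1.27). Hnrnpul1 was covered over 89.5% in MEF and 92.4% in MEF B12, and 83.9% in OSKM against 93.0% in OSKM B12, and it was the only marked member with a peak over its start, in OSKM. Hnrnpu, a scaffold-attachment RNA-binding protein, was covered over 83.4%, 78.4%, 42.2% and 84.7% in the same order. Its density was 0.622 in MEF and 0.750 in MEF B12, and 0.228 in OSKM against 0.696 in OSKM B12, with OSKM 0.366 times MEF (95% counting interval 0.324 to 0.414). OSKM peaks within the Hnrnpu body stopped 3264 bases before the end, inside the last exon, while the other 3 libraries ran at least 3629 bases past it. Further OSKM peaks lay past the end, from 13.689 to 15.675 kb and from 16.461 kb after the start of this 13.455 kb body. Hnrnpc, which binds uridine tracts, had a ratio of 0.366 and was covered over 73.7%, 81.8%, 34.1% and 74.9%.

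Hnrnpab had the least negative log2 change of density among hnRNP genes (−0.48), with 79.1%, 77.9%, 77.5% and 80.9% of its body covered in MEF, MEF B12, OSKM and OSKM B12. It overlaps Phykpl. Hnrnpf was the least covered marked member in MEF, at 11.9%, then 19.3%, 1.38% and 14.9%, and every peak lay in the downstream 50% of a 25282-base body. Without the added 0.05 its density in OSKM was 0.105 times MEF (95% counting interval 0.0633 to 0.176), a lower ratio than that of Hnrnpu. This ratio rests on about 149 estimated tags in MEF and 16.3 in OSKM, and mostly on lost calls. On the bases of Hnrnpf called in all 4 libraries the scaled pileup was 0.460 in MEF and 0.402 in OSKM. Hnrnpa3 was the reverse case. Its peaks ended between 3778 and 4001 bases before the annotated end, and 31.8% of its MEF pileup lay downstream. Hnrnph3 had all of its MEF pileup in the downstream 50%, in a peak that continued 15754 bases beyond the gene. Hnrnpa1, an hnRNP that counters SR proteins at splice sites, was the only member at least 0.5 log2 higher in OSKM B12 than in MEF, with a density of 0.548 in MEF and 0.628 in MEF B12, and 0.261 in OSKM against 0.802 in OSKM B12.

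The Snrp genes encode proteins of the snRNPs, among them those of the Sm ring. Snrpa, a U1 snRNP protein, had the highest MEF density of the group, 0.710, beside 0.801 in MEF B12, and 0.428 in OSKM against 0.857 in OSKM B12. Snrpf, an Sm ring protein, was covered over 44.5% in MEF and 45.4% in MEF B12, and 0% in OSKM against 45.9% in OSKM B12. It and Srsf2 were the 2 marked members with no OSKM peak, and part of its body (1299 bases) overlaps Ccdc38. Snrpg, another Sm protein, had the least negative log2 change of density from MEF to OSKM (−0.32) and was covered over 36.2%, 40.8%, 33.2% and 42.7%, with all pileup downstream in every library. Snrpd1 had the lowest MEF density, 0.192, and 31.6% of its pileup downstream, and its MEF peak stopped 8783 bases before the annotated end of the longest transcript.

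Prpf8, which sits at the catalytic centre of the spliceosome, had the highest MEF density of all members. Its density was 0.943 in MEF and 1.15 in MEF B12, and 0.573 in OSKM against 1.14 in OSKM B12, and its MEF level lay above 99.7% of all marked genes. Prpf19, a ubiquitin ligase that joins the active spliceosome, had the least negative log2 change of density in the Prpf group (−0.51) and was covered over 71.4%, 70.9%, 65.1% and 72.9%. Prpf18 had the lowest downstream share of the group in MEF, 49.3%.

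U2af1 and U2af2 encode the heterodimer that binds the 3′ splice site and polypyrimidine tract. U2af1 had a density of 0.741 in MEF and 0.829 in MEF B12, and 0.459 in OSKM against 0.958 in OSKM B12. U2af2 was covered over 73.9%, 76.7%, 69.7% and 78.4%. U2af1l4, a short relative of 2054 bases that overlaps Psenen, was covered over 30.1%, 32.8%, 15.4% and 26.3%, all of it downstream in a peak of 22208 bases in MEF that continued 21589 bases beyond the gene. Its ratio of OSKM to MEF, 0.295 (95% counting interval 0.180 to 0.483), rests on about 67.3 estimated tags in MEF and 20.6 in OSKM.

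All 63 marked members had lower density in OSKM than in MEF, as did 98.4% of all marked genes. The median log2 change, with a pseudocount of 0.05 added to each density, was −0.71, and over all 8966 marked genes it was also −0.71. A log2 change of −1 or lower was reached by 14 of 63 members (22.2%), where 19.4% of all marked genes reached it. They included Hnrnpc, Hnrnph1, Hnrnph3, Hnrnpll, Hnrnpr, Hnrnpu, Prpf6, Snrpd3, Snrpf, Srsf1, Srsf10, Srsf2 and U2af1l4. By name group they were 3 of 10 Srsf, 6 of 18 Hnrnp, 0 of 8 Sf3, 2 of 11 Snrp, 2 of 13 Prpf and 1 of 3 U2af genes. The members' share lies near the background, so the decrease was one that marked genes in general showed.

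With vitamin B12 in reprogramming cells, all 63 members had higher density in OSKM B12 than in OSKM, as did 99.7% of all marked genes. The median log2 change was 0.94, against 0.99 for all marked genes, and 25 members (39.7%) reached 1 where the background was 48.3%. The highest values were those of Srsf2 (2.79), Snrpf (2.47) and Srsf1 (1.98), of which the first pair had no OSKM peak, so their values depend on the pseudocount. No Sf3 gene reached 1. Srsf1 density in OSKM B12 was 7.11 times OSKM (95% counting interval 4.96 to 10.2), and that of Sf3b3 was 1.87 times (1.77 to 1.97). The Srsf1 ratio includes bases that were not called in OSKM. On bases called in all 4 libraries its scaled pileup was 0.413 in OSKM and 0.650 in OSKM B12.

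In cells without doxycycline the difference with B12 was smaller. Density was higher in MEF B12 than in MEF in 59 of 63 members and 91.9% of all marked genes, with a median log2 change of 0.24 against 0.21 for all marked genes. None reached 0.5, where the background was 5.7%. In OSKM B12 compared with MEF, 59 of 63 members were higher (92.2% of all marked genes), with a median of 0.23 against 0.27. Hnrnpa1 alone (0.51) reached 0.5, against a background of 12.5%, and Srsf1 (−0.21), Srsf2 (−0.18), Hnrnpdl (−0.13) and Hnrnph1 (−0.04) were the 4 with lower density. Without division by tag number the 2 medians would be 0.09 and 0.11. These 4 comparisons share libraries and are not independent of each other.

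**Figure D3:**
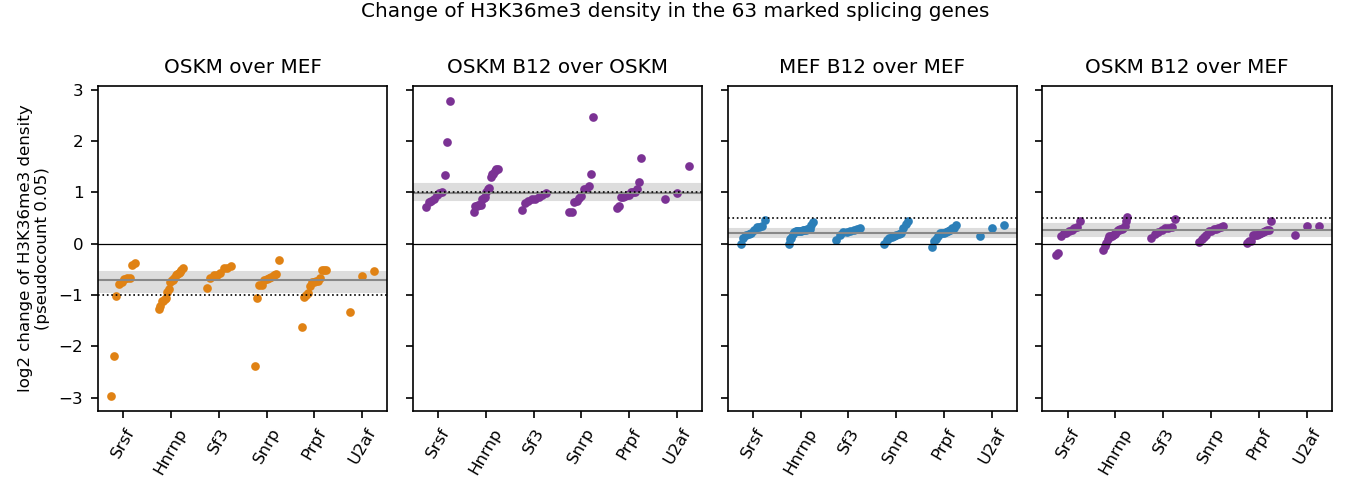
Log2 change of H3K36me3 density (pseudocount 0.05) in each marked member, by name group, for 4 comparisons of libraries. Grey line and band give the median and the middle 50% of all 8966 marked genes and the dotted line is the counting threshold; all points lie below 0 for OSKM over MEF and above 0 for OSKM B12 over OSKM, with Srsf2, Srsf1 and Snrpf furthest out.

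Density combines how much of a gene is covered with how high the signal is where it is covered. Of the bases under peaks in members in MEF (750.2 kb), 73.3% were also under peaks in OSKM, compared with 58.7% over all marked genes. In the other direction 98.3% of OSKM bases in members lay under MEF peaks. Members thus retained more of their called bases than marked genes as a whole. Retained here means called again, and the MEF level in peaks was higher in members (median 0.735 against 0.579). The part of that level in the retention was not tested. On bases called in all 4 libraries, which 61 members had (543.0 kb), the scaled pileup in OSKM was a median 0.709 times that in MEF, against 0.780 in all marked genes. All 61 were below 1, as were 97.1% of all marked genes with such bases, and they ran from 0.550 in Hnrnph1 to 0.874 in Hnrnpr. On the same bases OSKM B12 was 1.65 times OSKM (1.5 over all marked genes) and MEF B12 was 1.16 times MEF (1.13). Within shared bases the members' OSKM level was the lower of the 2 sets relative to MEF. No test of that difference was possible with 1 library per group. Shared bases are only those still called in OSKM, so the OSKM level there cannot fall below the calling level. The median scaled MEF pileup on them was 0.745 in members and 0.611 in all marked genes, which leaves all marked genes less room to fall. The part of this selection in the difference between the sets was not tested.

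A single peak over the gene was more frequent in splicing genes than in marked genes as a whole in MEF and in both B12 groups, and near the background in OSKM. Members had shorter bodies than all marked genes (median 13819 against 20868 bases). Peak number was not compared within length classes, so the part of body length was not tested. In MEF 37 of 63 members (58.7%) were touched by only 1 peak, against 27.0% of all marked genes, and in OSKM 12 (19.05%) were, against 17.97%. MEF B12 had 40 (63.5%), against 28.8%, and OSKM B12 had 30 (47.6%), against 28.5%. The mean number of peaks per member was 2.27 in MEF and 2.06 in MEF B12, and 3.89 in OSKM against 2.40 in OSKM B12. The longest peak of a member had a median of 10018 bases in MEF and 10809 in MEF B12, and 4895 in OSKM against 10314 in OSKM B12. OSKM was the library in which members held more and shorter peaks. The strongest peak of a member reached a −log10 q of 5 in 53, 59, 17 and 59 of 63 members in the same order, which is 84.1%, 93.7%, 27.0% and 93.7% against 72.0%, 79.4%, 21.8% and 82.4% of all marked genes. Peaks reached the annotated gene end in 48, 53, 38 and 50 members (76.2%, 84.1%, 60.3% and 79.4%), where 66.04%, 69.3%, 44.1% and 67.7% of all marked genes had one there.

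Along the body, called signal was close to 0 at the start of splicing genes and was near its plateau by bin 8 of 20 in MEF. With the body cut into 20 bins of equal length, the mean MEF density of members was 0.00108 in bin 1, 0.603 in bin 8 and 0.689 in bin 15. Over all marked genes it was 0.0202, 0.299 and 0.450, a larger relative rise from bin 8 to bin 15 than in members. OSKM followed the same course at a lower level, with 0.344 in bin 8 and 0.405 in bin 15 of members. The first peak of a member began at a median of 2634 bases past the start in MEF, and at 2400, 2819 and 2205 bases in MEF B12, OSKM and OSKM B12. As a share of the body the MEF onset was 23.7%, near the 22.7% of all marked genes.

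**Figure D4:**
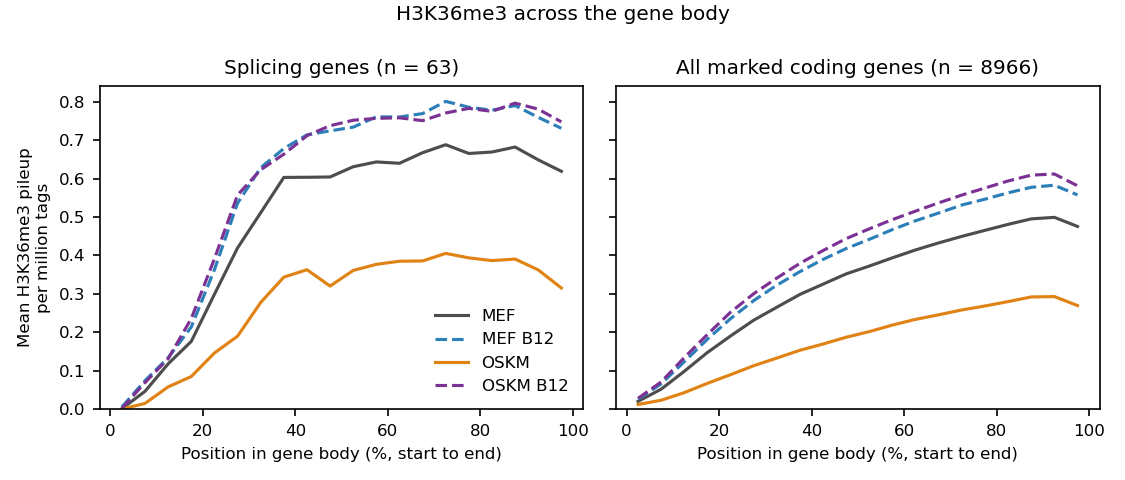
Mean H3K36me3 pileup per 1000000 tags in 20 bins from gene start to gene end, for the 63 marked splicing genes (left) and all 8966 marked coding genes (right), 1 line per library. In splicing genes the MEF line reaches 0.603 by bin 8 and then changes little, and the OSKM line lies below the other 3 in every bin.

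The 3′ share, the percentage of a gene's pileup in the downstream 50% of its body, was 75% or more in 16 of 63 members in MEF, 15 in MEF B12, 19 of 61 in OSKM and 14 in OSKM B12. The background was 46.5%, 45.1%, 54% and 44.4% of marked genes with a peak. Splicing genes therefore had fewer 3′-weighted bodies in each library, as shares of 25.4%, 23.8%, 31.1% and 22.2%. Their median 3′ share in MEF was 65.5%, against 72.9% for all marked genes. Within length classes the order was the same: 72.2% against 81.9% under 10 kb and 61.2% against 69.0% from 10 to 25 kb. From 25 kb it was 66.1% against 71.1%. Marked members were also more widely covered in MEF (median 69.9% against 51.1%). The 3′ share was not compared at equal coverage, so the part of coverage was not tested.

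Exons and introns of splicing genes were covered to a like extent. The median covered share in MEF was 75.1% of exon bases and 67.7% of intron bases in members, compared with 74.4% and 46.3% in all marked genes. In OSKM it was 56.7% and 54.7% in members, against 53.9% and 26.8%. The gap between members and all marked genes thus lay in introns, in all 4 libraries. Members had a median of 10 exons over 13819 bases, and all marked genes a median of 9 exons over 20868 bases. Exon and intron coverage was not compared within length classes, so the part of body length in this gap was not tested.

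GENCODE annotates an NMD transcript for 34 of the 63 marked members (54.0%), against 31.4% of all marked genes, and a retained-intron transcript for 50 (79.4%), against 63.1%. Internal exons that occur in an NMD transcript and overlap no exon of a protein-coding transcript were found in 19 members, 30 exons in all, of which some overlap. At least 50% of the exon lay under a peak in 27 exons in MEF and 27 in MEF B12, and 23 in OSKM against 28 in OSKM B12. As shares of the 30 exons these were 90%, 90%, 76.7% and 93.3%. Among the 1273 such exons of 928 marked genes, 55.8%, 60.6%, 38.6% and 59.9% did. Whole bodies differed in the same direction. In MEF 81.0% of marked members and 51.3% of all marked genes were covered over at least 50%. The part of body coverage in the exon shares was not tested. In Srsf3 and Srsf7 the long decay-linked exons of 456 and 460 bases were fully covered in all 4 libraries, and that of Srsf9 (358 bases) was at 0% in all 4.

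The acceptor sites of 6 of these exons are shown because they are the splice sites through which such exons enter the transcript. Each line gives 30 intron bases in lower case and the first 30 exon bases in capitals, 5′ to 3′ on the strand of the gene, read from the GRCm38 (mm10) assembly.
Srsf3, chr17:29039424-29039483, plus strand: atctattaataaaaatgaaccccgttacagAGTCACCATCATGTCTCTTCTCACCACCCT
Srsf4, chr4:131884246-131884305, plus strand: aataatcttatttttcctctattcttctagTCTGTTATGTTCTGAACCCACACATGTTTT
Srsf11, chr3:158023330-158023389, minus strand: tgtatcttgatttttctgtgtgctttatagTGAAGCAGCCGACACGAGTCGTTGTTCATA
Snrpb, chr2:130176723-130176782, minus strand: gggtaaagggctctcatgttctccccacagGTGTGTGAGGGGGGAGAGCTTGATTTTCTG
Hnrnpl, chr7:28817305-28817364, plus strand: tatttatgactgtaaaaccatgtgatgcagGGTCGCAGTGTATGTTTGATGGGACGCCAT
Hnrnpll, chr17:80044993-80045052, minus strand: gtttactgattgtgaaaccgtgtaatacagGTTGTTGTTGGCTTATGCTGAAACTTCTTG
Every intron end is AG. In the 17 bases that precede the last 3 of the intron, C or T made up 16 in Srsf4, 14 in Snrpb, 13 in Srsf11, and 7 each in Srsf3, Hnrnpl and Hnrnpll. The acceptors of the paralogues Hnrnpl and Hnrnpll had the same base at 21 of 30 intron positions and at 7 of 30 exon positions in an ungapped comparison.

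A pileup over an exon is the mean of the whole peak that lies there, so it carries no detail at the scale of an exon. Over the Hnrnpl exon the scaled pileup was 1.06 in MEF and 1.27 in MEF B12, and 0.710 in OSKM against 1.33 in OSKM B12. The Hnrnpll exon had 0.575, 0.680, 0.375 and 0.627 in the same order, and that of Srsf3 had 0.870, 0.960, 0.577 and 1.13. OSKM was the lowest library over all 3. The Srsf4 exon shown was at 0% in MEF and OSKM, 30.4% covered in MEF B12 and fully covered in OSKM B12.

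Splicing genes that the naming rule leaves out were taken from a list of 104 genes, of which 101 were found and 96 were marked. Their median covered share was 77.7% in MEF and 78.8% in MEF B12, and 60.4% in OSKM against 79.1% in OSKM B12, above the 69.9%, 72.8%, 55.8% and 73.4% of the 63 members. From MEF to OSKM 10 of the 96 (10.4%) had a log2 change of −1 or lower, against 19.4% of all marked genes, and the median was −0.67. From OSKM to OSKM B12 30 (31.2%) reached 1, against 48.3%, with a median of 0.91. Called decreases were 2 of 9 U1 and minor snRNP genes, 0 of 10 U2-associated, 1 of 18 tri-snRNP, 1 of 14 Prpf19-complex, 1 of 9 late-step, 2 of 9 exon junction, 3 of 20 regulator and 0 of 7 SR kinase genes. The most negative changes were those of Lsm8 (−1.77), an Lsm ring protein of the U6 snRNP, and Rbm8a (−1.76), a core exon junction protein. Lsm2 (0.05) and Lsm4 (−0.04), of the same U6 ring, had the least negative. Lsm5, Esrp1, Mbnl1, Celf2 and Qk were below the 10% level, of which Lsm5 and Esrp1, an epithelial splicing regulator, had no peak in any library.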

How the data were processed

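H3K36me3 ChIP–seq was analysed from 4 deposited broad peak lists, 1 per condition. Bowtie 0.12.9 was used by the authors for alignment to mm10. They merged runs from both flowcells, removed duplicates and called peaks with MACS2 2.2.6 in each library against its own input (q cut-offs 0.05 and 0.1). The authors' pileup is an unscaled signal averaged over a peak, fold enrichment is a ratio to input, and significance is given as −log10 p-values and q-values. The labels give the doxycycline dose as µg/ml and the paper in mg/ml.

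From these files, covered bases and pileup per 1000000 tags were summed over gene bodies (Python 3.11, numpy 2.4.6), with a pseudocount of 0.05. Depth sets which signal can be called, and scaling to tags makes pileup relative, so a change of the whole mark in the cell is not measured. Signal outside called peaks was not analysed. Intervals treat pileup times length over fragment length as tags and cover counting error only. Interval sums were tested on simulated data. The members and lists were chosen with earlier results of these data known. In each name group, the genes named were those with the highest and lowest MEF density, the largest and smallest change from MEF to OSKM, and the highest and lowest 3′ share, with all members under 10% covered; 1 such gene is not reported here. Hnrnpa1, Hnrnpc, Srsf10, the genes counted past a threshold and those with decay-linked exons were named after their values were seen. Alternatives are listed under the closing section.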

Additional observations from a re-analysis of the deposited data

Results flagged for a closer look

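Between MEF and MEF B12 the density of 4 members was lower with B12, while between OSKM and OSKM B12 it was higher, so the direction of the B12 difference was opposite in the 2 backgrounds. Among all marked genes 8.07% were lower in MEF B12. Without division by tag number 15 members were lower, and 26.5% of all marked genes. The difference between the backgrounds was not tested, since each group had 1 library. The log2 change from MEF to MEF B12 was −0.0033 in Srsf1, −0.0070 in Hnrnph1, −0.0123 in Snrpd2 and −0.0563 in Prpf31, and from OSKM to OSKM B12 it was 1.98, 1.08, 1.13 and 0.73 in the same order. All 4 counting intervals of the ratio of MEF B12 to MEF contain 1: 0.841 to 1.18 in Srsf1, 0.895 to 1.11 in Hnrnph1, 0.770 to 1.27 in Snrpd2 and 0.861 to 1.07 in Prpf31.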

How the results depend on the processing

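No paired analysis was possible because there was 1 library in each group, so none could be left out either. Of 80 alternative counts, 60 stayed within 1.5 times the reported count, and the sign of the median log2 change was kept under every alternative. Restricting peaks to a −log10 q of 5 or more gave 43 decreases in OSKM and 53 increases in OSKM B12 over OSKM. It gave 11 increases in MEF B12 over MEF and 10 in OSKM B12 over MEF. In OSKM 9 members were then covered over at least 50%, and 9 had most signal downstream. This filter kept 2166 of 64364 peaks in OSKM. It kept 10010 of 64885 in MEF, 11734 of 64734 in MEF B12 and 13087 of 67234 in OSKM B12. The decreases were then 68.3% of members against 53.7% of all marked genes, with a median log2 change of −2.75 against −1.21. The increases over OSKM were 84.1% against 69.8%, opposite in order to the reported 39.7% against 48.3%, with a median of 3.02. Those in MEF B12 over MEF were 17.5% against 21.3%, and those in OSKM B12 over MEF 15.9% against 29.4%. The 9 members covered over at least 50% in OSKM were 13.6% against 5.78%. The 9 with most signal downstream were 52.9% of 17 members with such a peak, against 70.7%. A pseudocount of 0.2 gave 3 decreases (4.76% against 0.93% of all marked genes) and 0 increases over MEF in OSKM B12 (against 2.90%). It gave 5 increases over OSKM (7.94% against 2.97%), opposite in order to the reported shares. A pseudocount of 0.01 gave 2 increases in MEF B12 and 2 in OSKM B12 over MEF (3.17% each, against 9.79% and 18.5%). It gave 19 decreases (30.2% against 38.9%), opposite in order to the reported 22.2% against 19.4%. Bases called in all 4 libraries gave 0 decreases (against 0.05%) and 0 increases in OSKM B12 over MEF (against 2.19%). They gave 2 increases over OSKM (3.28% against 0.56%), again opposite in order to the reported shares. The medians were −0.46 in OSKM over MEF and 0.67 in OSKM B12 over OSKM. Fold enrichment in place of pileup gave 9 decreases (14.3% against 18.5%), also opposite in order to the reported shares. It gave 1 increase in MEF B12 (1.59% against 6.77%) and 0 in OSKM B12 over MEF (against 9.90%). Pileup without division by tags gave 15 increases over OSKM (23.8% against 29.3%) and 0 in OSKM B12 over MEF (against 6.78%). It moved the median of all marked genes by −0.14 in OSKM B12 over OSKM. In MEF B12 and OSKM B12 over MEF, 48 and 51 members then lay above 0. Below 0 lay 15 and 12 members, and 26.5% and 18.8% of all marked genes. Whole gene records gave 0 in OSKM B12 over MEF (against 12.3%). The cause of these shifts was not tested. The counts past a threshold, their order between members and all marked genes, and the size of the medians thus depend on the setting. The sign of the medians does not. Depth limits what can be called, and Srsf1 and Srsf2 lie near that limit in OSKM.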
